A study of Homo sapiens with 6 samples.

Results

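The genes of polyamine metabolism were followed in 6 messenger RNA libraries of SNU-668, a line of human gastric cancer cells in wide use, kept here as a subline that resists erastin. They were chosen by symbol: ODC1, AMD1, SRM, SMS, OAZ1, OAZ2, AZIN1, SAT1 and MTAP. Of these 9 symbols, 8 were analysed among the 11314 protein-coding genes of the deposited table, and MTAP was not analysed here. Levels are in FPKM, fragment counts divided by transcript length and by library size, so levels may be compared between genes. By title, 3 libraries belong to SPIN1 and 3 to NC, and the treatment entries describe resistant cells carrying shRNA-SPIN1, a short hairpin RNA, or shRNA-NC. All 6 titles begin with RLS3, a prefix that does not name erastin and was not interpreted here. The genotype entries run against the titles, with wild type entered for SPIN1 and the knockdown for NC, and the design text gives ALKBH3 as the target. The titles were used for the groups, called the NC and the SPIN1 libraries here, and "higher" and "lower" are for SPIN1 compared with NC. Separate cultures and the number of clones are not stated, so a p-value here rests on the spread between libraries, and that spread may be technical. In bulk RNA, a change in the share of cells that make a transcript and a change in its amount per cell cannot be told apart.

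Polyamines (putrescine, spermidine and spermine) are small positively charged molecules that bind nucleic acids and that dividing cells need in large amounts. ODC1 makes putrescine from ornithine, and the synthases SRM and SMS add aminopropyl groups to it in turn, with the groups supplied by the AMD1 product. Antizymes hold the pathway back by carrying the ODC1 enzyme to the proteasome, an antizyme inhibitor frees it, and SAT1 acetylates spermidine and spermine for export or oxidation. SAT1 is also known as a gene whose activity sensitizes cells to ferroptosis, the iron-dependent cell death that erastin sets off.

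Short sequences are shown first because polyamines act on these transcripts at the level of translation, which RNA levels do not measure. The antizyme reading frame is interrupted by a stop codon, and ribosomes shift forward by a single base there when polyamines are plentiful. Both antizyme transcripts hold that site, copied from GENCODE transcripts on GRCh38 (chromosome 19 for OAZ1 and 15 for OAZ2), with the stop codon in capitals:
OAZ1: gggcctcggtggtgctccTGAtgcccctca
OAZ2: gggcctctgtggtgctccTGAtgcccctca
The sites were identical at 29 of 30 bases. AMD1 carries a short upstream reading frame whose peptide stalls ribosomes when polyamines are high. It was found just after the start of the RefSeq transcript (GRCh38.p14, chromosome 6), with 6 codons before the stop, its start and stop codons in capitals:
AMD1: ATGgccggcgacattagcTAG
Promoter windows, from 250 bases before to 50 after a transcript start, were matched in RefSeq (GRCh38.p14) for 8 of the 9 symbols, all but AZIN1, as 11 windows. They were searched on both strands for 4 motifs: the E-box CACGTG bound by MYC, the cyclic AMP response element TGACGTCA, the C/EBP-ATF element TGATGNAAN bound by ATF4, and the antioxidant response element TGACNNNGC bound by NRF2. Over all 35116 windows of that length, these letters occurred in 7.26%, 1.85%, 3.61% and 13.3%. The E-box was found in ODC1, a textbook MYC target, and in SRM. The 3 windows below are those of these genes and of SAT1, whose transcript fell, each on the strand of its gene with matches in capitals:
ODC1 second start, chr2:10447963-10448262, minus strand: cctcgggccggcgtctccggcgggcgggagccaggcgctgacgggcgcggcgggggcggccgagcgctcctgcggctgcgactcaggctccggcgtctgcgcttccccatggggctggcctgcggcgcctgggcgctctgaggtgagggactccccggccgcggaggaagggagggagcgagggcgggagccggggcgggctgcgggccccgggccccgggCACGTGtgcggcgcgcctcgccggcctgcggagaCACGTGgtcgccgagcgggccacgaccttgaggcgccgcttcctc
SRM, chr1:11059969-11060268, minus strand: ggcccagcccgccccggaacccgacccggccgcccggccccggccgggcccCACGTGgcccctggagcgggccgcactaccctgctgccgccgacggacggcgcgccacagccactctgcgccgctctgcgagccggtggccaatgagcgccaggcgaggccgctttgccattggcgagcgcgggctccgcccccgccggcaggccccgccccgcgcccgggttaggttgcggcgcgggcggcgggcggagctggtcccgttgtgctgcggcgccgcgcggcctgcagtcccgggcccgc
SAT1, chrX:23782923-23783222, plus strand: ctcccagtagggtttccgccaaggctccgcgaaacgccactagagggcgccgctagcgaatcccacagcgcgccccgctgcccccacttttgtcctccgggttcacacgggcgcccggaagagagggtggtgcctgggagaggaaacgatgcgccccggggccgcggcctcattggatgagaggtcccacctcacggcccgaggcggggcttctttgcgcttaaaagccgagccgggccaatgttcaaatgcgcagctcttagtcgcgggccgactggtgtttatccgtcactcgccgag
ODC1 held E-boxes at bases -29 to -24 and 6 to 11 from that start, and SRM held 1 at -199 to -194. The other ODC1 start held an antioxidant response element, read on the opposite strand, at -5 to 4. None of the 4 motifs occurred in the windows of SAT1, SMS, AMD1, OAZ1, OAZ2 or MTAP. A match is a run of letters and not a measured site, and these windows are on another build than the expression table, which is on hg19.

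Across the libraries, median FPKM ran from 4.91 to 5.49, and 34.3% to 38.4% of all FPKM came from 13 mitochondrially encoded genes in the NC libraries and 32.2% to 34.9% in the SPIN1 libraries. SPIN1 itself was at 0.322, 6.18 and 7.97 FPKM in NC replicates 1 to 3 and at 0.324, 0.629 and 2.49 FPKM in SPIN1 replicates 1 to 3, so the groups overlapped and its level did not settle the labels (log2 difference -1.17, limma adjusted p = 0.307). NC replicate 1 was as low as the lowest SPIN1 library. Without it the SPIN1 gene had a log2 difference of -2.03 (limma adjusted p = 0.0302), but that library was singled out by this same gene. The other fits that left out 1 library gave limma adjusted p from 0.256 to 0.601 for the SPIN1 gene. Each fold change tested below for the polyamine genes was also computed without NC replicate 1. Of 6 epithelial markers, KRT8, KRT18 and EPCAM were read, and EPCAM was between 0.313 and 1.44 FPKM. The summed level of these 3 was 95.4 to 113.5 FPKM in the NC libraries and 140 to 241 FPKM in the SPIN1 libraries. Of 5 fibroblast markers, COL3A1 and DCN were read, with COL3A1 between 166 and 249 FPKM and a summed level of 173.5 to 199 against 171 to 253 FPKM. For 5 immune markers (CD68, CD14 and LYZ read) the sum was 169 to 182 FPKM against 91.3 to 156 FPKM, and of 4 endothelial markers CDH5 was read, at no more than 1.73 FPKM. Of the single markers, KRT8 (log2 difference 1.11, limma adjusted p = 0.0153), KRT18 (0.68, 0.0399) and DCN (0.94, 0.00902) were higher, and CD14 (-1.04, 0.0116) and LYZ (-0.56, 0.00875) were lower. With 1 library left out, these calls held in 6 of 6 fits for DCN, CD14 and LYZ, in 5 for KRT8 and in 2 for KRT18. The part of these differences in the results below was not tested.

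The polyamine transcripts moved in both directions. ODC1, SMS, OAZ1 and OAZ2 rose and SAT1 fell, whereas AMD1, SRM and AZIN1 did not pass the test. Thus 4 of 8 genes were higher and 1 lower in limma's test on log2(FPKM + 1) at a Benjamini-Hochberg adjusted p under 0.05. Over all 11061 genes tested, 27.6% were called, 17.3% higher and 10.3% lower (1914 and 1139 genes, and 1596 and 1570 after quantile normalization). The same 5 genes were those whose groups did not overlap, 4 higher and 1 lower, where 46.0% of all genes did not overlap (27.2% higher and 18.8% lower). The median log2 difference of the 8 genes was 0.49, beside 0.049 over all genes tested. No other gene of the table overlapped any of the 8 by its coordinates.

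**Figure D1:**
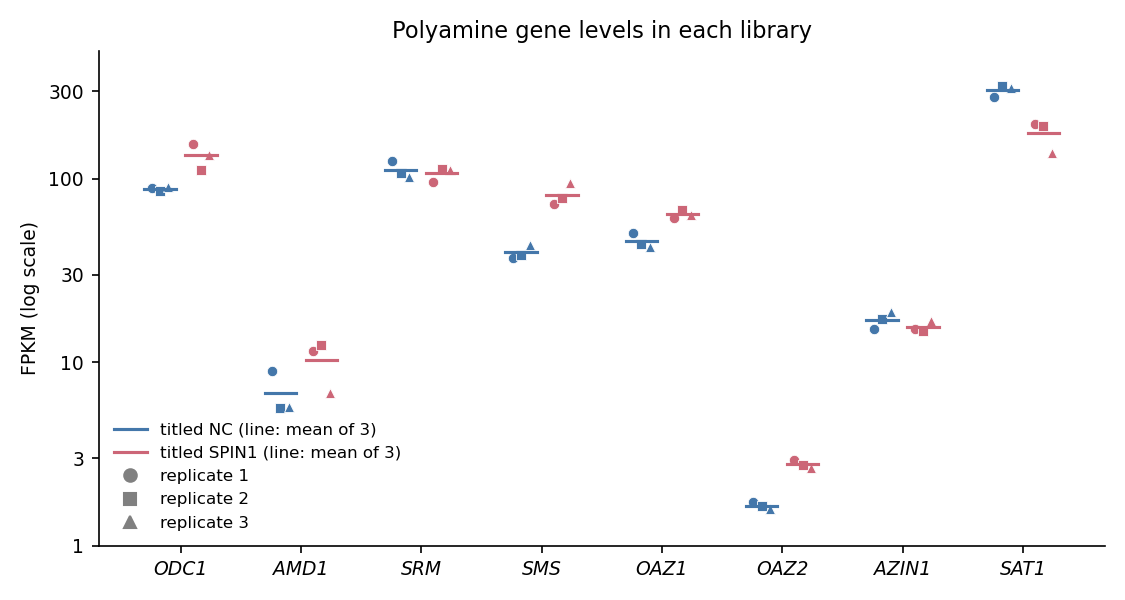
FPKM of the 8 polyamine genes in each library, on a log axis, with the NC libraries in blue, the SPIN1 libraries in red, a symbol for each replicate number and a line at the mean of 3. SAT1 sits at 281 to 321 FPKM in the NC libraries and at 139 to 199 FPKM in the SPIN1 libraries, while SMS lies at 37.2 to 43.8 and 72.6 to 95.2 FPKM.

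Among the enzymes of synthesis, ODC1 (ENSG00000115758.12_3, hg19 chromosome 2, 10580094 to 10588630, minus strand), the rate-limiting enzyme, was at 89.2, 85.7 and 90.9 FPKM in NC replicates 1 to 3. In the SPIN1 group the values were 155, 112 and 135 FPKM. Every SPIN1 library lay above every NC library, and the spread was wider in the SPIN1 group. The group means were 88.6 ± 2.65 and 134 ± 21.4 FPKM (± SD, 3 libraries each), 1.52-fold higher, with a log2 difference of 0.58 (SE 0.12, limma adjusted p = 0.0156). Its call was lost without NC replicate 2 (log2 difference 0.56, limma adjusted p = 0.0591) and held in the other 5 fits that left out 1 library.

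SMS (ENSG00000102172.15_3, hg19 chromosome X, 21958691 to 22012953, plus strand), which turns spermidine into spermine, had the largest difference of the 8 genes. It was at 37.2, 38.5 and 43.8 FPKM in the NC libraries and at 72.6, 78.5 and 95.2 FPKM in the SPIN1 libraries. The lowest SPIN1 library was far above the highest NC library. The mean rose 2.06-fold, from 39.8 ± 3.49 to 82.1 ± 11.7 FPKM (± SD, 3 libraries each), a log2 difference of 1.02 (SE 0.13, limma adjusted p = 0.00242). Among all genes tested, 95.9% had a lower difference. With 1 library left out, its log2 difference stayed between 0.91 and 1.10 and its limma adjusted p at or under 0.0132.

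SRM (ENSG00000116649.9_3, hg19 chromosome 1, 11114641 to 11120081, minus strand), which makes the spermidine that SMS uses, was at 125, 108 and 103 FPKM in the NC libraries and at 96.8, 113 and 112 FPKM in the SPIN1 libraries. The groups lay across each other, at 112 ± 11.5 and 107 ± 9.13 FPKM (± SD, 3 libraries each). The log2 difference of -0.06 had a 95% interval of -0.32 to 0.20 (limma adjusted p = 0.712), and its sign turned without NC replicate 1 (0.02) and without SPIN1 replicate 1 (0.01). An interval of this width leaves room for a modest change in either direction. GENCODE names 2 pseudogenes after SRM and 4 after AMD1, and the sources used here do not say how reads shared with such copies were counted.

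AMD1 (ENSG00000123505.15_3, hg19 chromosome 6, 111195973 to 111216916, plus strand), which decarboxylates S-adenosylmethionine into the aminopropyl donor, was at 9.01, 5.63 and 5.69 FPKM in the NC libraries. The SPIN1 libraries had 11.5, 12.4 and 6.83 FPKM. SPIN1 replicate 3 fell below NC replicate 1, so the groups overlapped. The means were 6.78 ± 1.94 and 10.2 ± 2.99 FPKM (± SD, 3 libraries each), and the log2 difference of 0.52 (SE 0.26, 95% interval -0.10 to 1.14) was not past the threshold (limma adjusted p = 0.184). It came nearest without SPIN1 replicate 3 (0.76, limma adjusted p = 0.0549), and it was past it with a weight estimated per library (0.85, limma adjusted p = 0.00838), a fit that called 48.9% of all genes.

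The regulators of the ODC1 enzyme followed. OAZ1 (ENSG00000104904.12_4, hg19 chromosome 19, 2269508 to 2273489, plus strand), the main antizyme, was at 50.9, 44.3 and 42.5 FPKM in the NC libraries and at 60.9, 68.0 and 63.9 FPKM in the SPIN1 libraries. All 3 SPIN1 libraries were higher, and the means were 45.9 ± 4.40 and 64.2 ± 3.56 FPKM (± SD, 3 libraries each), a 1.40-fold rise. The log2 difference of 0.48 (SE 0.10, limma adjusted p = 0.0137) lost its call without NC replicate 2 (0.46, limma adjusted p = 0.0597), without NC replicate 3 (0.43, adjusted p = 0.0538) and without SPIN1 replicate 2 (0.44, adjusted p = 0.0532). OAZ2 (ENSG00000180304.14_3, hg19 chromosome 15, 64979772 to 64995480, minus strand), a second antizyme with the frameshift site printed above, was the least abundant of the 8 genes. It was at 1.73, 1.65 and 1.59 FPKM in the NC libraries and at 2.94, 2.74 and 2.66 FPKM in the SPIN1 libraries. These values were tightly grouped, and the mean rose 1.68-fold from 1.66 ± 0.0675 to 2.78 ± 0.143 FPKM (± SD, 3 libraries each; log2 difference 0.51, SE 0.09, limma adjusted p = 0.00905). For a gene at this level the log2(FPKM + 1) scale understates the change, and with a pseudocount of 0.1 the log2 difference was 0.71. The call of OAZ2 held in all 6 fits that left out 1 library (limma adjusted p up to 0.0445).

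AZIN1 (ENSG00000155096.13_3, hg19 chromosome 8, 103838585 to 103906092, minus strand), the antizyme inhibitor, resembles ODC1 but has no decarboxylase activity and binds antizyme in its place. It was at 15.2, 17.3 and 18.7 FPKM in the NC libraries and at 15.1, 14.9 and 16.8 FPKM in the SPIN1 libraries. The groups overlapped, at 17.1 ± 1.76 and 15.6 ± 1.02 FPKM (± SD, 3 libraries each), and the log2 difference of -0.12 had a 95% interval of -0.38 to 0.14 (limma adjusted p = 0.449). GENCODE lists an antisense gene named after AZIN1, and the sources used here do not say whether strand was used in counting.

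SAT1 (ENSG00000130066.16_2, hg19 chromosome X, 23801290 to 23804343, plus strand), the acetyltransferase of polyamine breakdown, had the highest mean of the 8 genes in both groups. In the NC libraries it was at 281, 321 and 313 FPKM, and in the SPIN1 libraries at 199, 195 and 139 FPKM. The groups were well apart, and SPIN1 replicate 3 was the lowest of all. The mean was 1.72-fold lower, at 177 ± 33.3 against 305 ± 21.1 FPKM (± SD, 3 libraries each), with a log2 difference of -0.79 (SE 0.15, 95% interval -1.15 to -0.44, limma adjusted p = 0.0101). Only 3.79% of all genes tested had a lower difference. The call held in all 6 fits that left out 1 library, with log2 differences from -0.88 to -0.63 and limma adjusted p up to 0.0405.

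**Figure D2:**
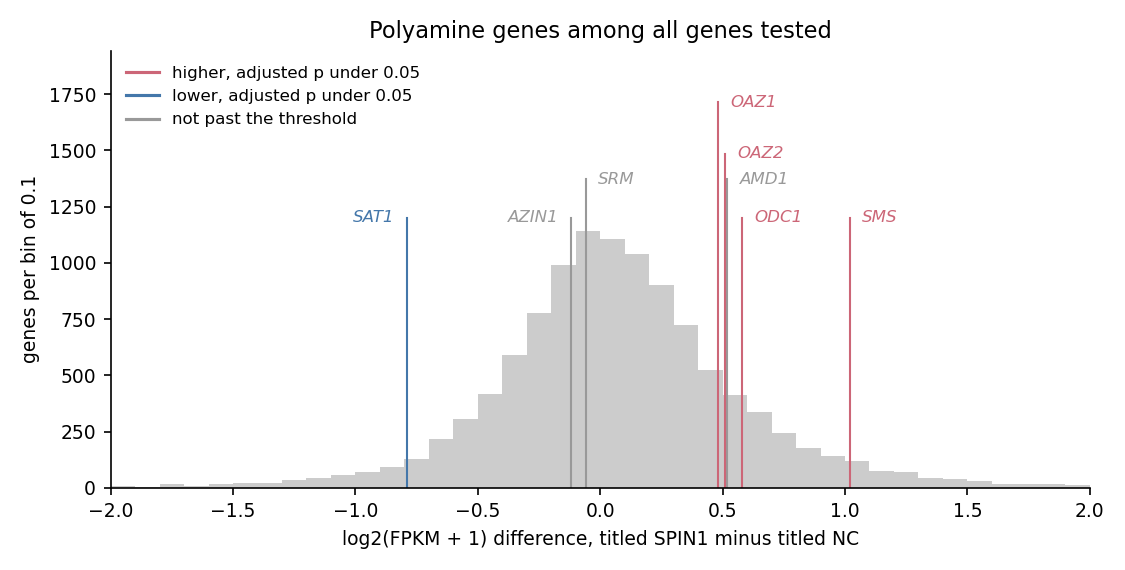
Histogram of the log2(FPKM + 1) difference, SPIN1 minus NC, of the genes tested, in bins of 0.1 and drawn from -2 to 2, with a line for each of the 8 polyamine genes coloured by its call. SMS (1.02) and SAT1 (-0.79) stand in the 2 tails, and SRM and AZIN1 lie near the centre.

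Oxidation, the step beside SAT1, was read from the list of other enzymes and regulators of polyamines. Of 4 genes tested there, 1 was higher, 1 lower and 2 not past the threshold. That is 25.0% higher and 25.0% lower, beside 17.3% and 10.3% of all genes tested. SMOX, which oxidizes spermine back to spermidine and gives off hydrogen peroxide, was at 189, 158 and 161 FPKM in the NC libraries and at 59.7, 67.6 and 57.0 FPKM in the SPIN1 libraries. The groups were far apart, and the mean was 2.76-fold lower, at 61.4 ± 5.47 against 169 ± 17.2 FPKM (± SD, 3 libraries each; log2 difference -1.45, SE 0.11, limma adjusted p = 0.000629). PAOX, which oxidizes the acetylated products of SAT1, was higher at 6.76, 5.08 and 4.89 FPKM against 3.95, 3.26 and 2.83 FPKM (difference 0.59 in log2, SE 0.16, limma adjusted p = 0.0313). The PAOX call was lost without NC replicate 2 (adjusted p = 0.0941), NC replicate 3 (0.0978), SPIN1 replicate 1 (0.0526) or SPIN1 replicate 2 (0.0654), all limma adjusted p-values. It was also lost after median scaling (limma adjusted p = 0.0572) and quantile normalization (0.0631). AGMAT, annotated as an agmatinase, and SAT2, a relative of SAT1, were not past it (log2 differences 0.27 and -0.19), and AZIN2, at no more than 0.616 FPKM, was below the level tested.

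The order of levels differed between the groups. From the highest, the NC libraries had SAT1, SRM, ODC1, OAZ1, SMS, AZIN1, AMD1 and OAZ2, and of these neighbours OAZ1 and SMS alone overlapped in their values. The SPIN1 libraries had SAT1, ODC1, SRM, SMS, OAZ1, AZIN1, AMD1 and OAZ2. There SAT1 overlapped ODC1 (139 to 199 against 112 to 155 FPKM), ODC1 overlapped SRM, and the other neighbours did not overlap. By rank among all genes of the table, the mean of SAT1 was at the 99.4th percentile in the NC group and at the 98.9th in the SPIN1 group. OAZ2 was at the 21.7th and 32.0th percentile.

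Ratios of genes in the same library, which no scaling of whole libraries can change, were then compared. The ratio of SAT1 to SMS was 7.56, 8.35 and 7.15 in the NC libraries and 2.74, 2.48 and 1.46 in the SPIN1 libraries. It was 3.57-fold lower in the SPIN1 group, the largest shift of the 8 ratios, and the groups did not overlap. The ratio of ODC1 to SAT1 was 0.317, 0.267 and 0.291 against 0.781, 0.578 and 0.972, a 2.61-fold rise by the mean log2 ratio. SAT1 was lower, and SMS and ODC1 were higher, in every SPIN1 library. The groups therefore could not overlap in either ratio, and the permutation p given below was fixed for both. SRM stood 3.36, 2.81 and 2.35 times above SMS in the NC libraries and 1.33, 1.44 and 1.18 times above it in the SPIN1 libraries. ODC1 to AZIN1 was 5.23 ± 0.556 against 8.62 ± 1.43, and SAT1 to SRM was 2.75 ± 0.436 against 1.67 ± 0.408 (± SD, 3 libraries each). In these, and in OAZ1 to OAZ2 (27.7 ± 1.55 against 23.2 ± 2.17), the groups did not overlap either. For each of these 6 ratios the exact permutation p, two-sided, was 0.1, the smallest that 3 against 3 libraries allow, and 0.133 after Benjamini-Hochberg adjustment over the 8 ratios. The OAZ1 to OAZ2 shift of -0.26 on the log2 scale was -0.03 once a pseudocount of 1 was added to both levels. ODC1 rose together with its main antizyme, and their ratio overlapped between the groups, at 1.75, 1.94 and 2.14 against 2.55, 1.66 and 2.12 (exact permutation p = 0.7). AMD1 to ODC1 overlapped as well, at 0.0764 ± 0.0213 against 0.0783 ± 0.0300 (± SD, 3 libraries each; exact permutation p = 1.0).

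**Figure D3:**
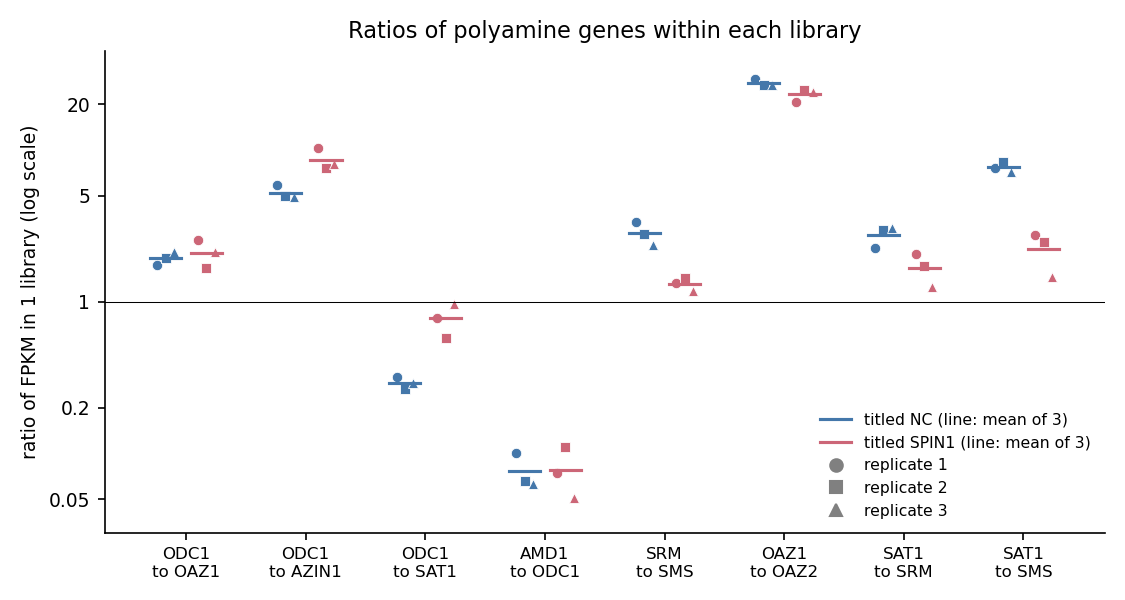
Ratio of the FPKM of 2 genes within a library, on a log axis, for 8 pairs, with the NC libraries in blue, the SPIN1 libraries in red, a symbol for each replicate number and a line at the mean of 3. SAT1 to SMS lies at 7.15 to 8.35 against 1.46 to 2.74, and ODC1 to OAZ1 overlaps between the groups.

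Around these genes, 5 lists cover other polyamine enzymes, transport, arginine and ornithine, the methionine cycle with its salvage route, and hypusination. Of the 33 of their 48 genes that were tested, 6 were higher and 10 lower, while 17 did not pass the threshold, with a median log2 difference of 0.12. That is 18.2% higher and 30.3% lower, beside 17.3% and 10.3% of all genes tested, and these all-gene shares are also the ones to set beside the short lists that follow. The lists were chosen with earlier results of these data known, so their shares are a description and not a test. With the log2 difference also required to reach 1, 1 was higher and 3 were lower.

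Genes of precursor supply moved in both directions. Of 6 arginine and ornithine genes tested, 2 were higher and 2 lower. ASS1, which makes argininosuccinate on the way to arginine, was at 118, 118 and 120 FPKM in the NC libraries and at 62.0, 61.6 and 53.3 FPKM in the SPIN1 libraries. That is 2.01-fold lower, with hardly any spread among the NC libraries (limma adjusted p = 0.00083). ARG2, the mitochondrial arginase that releases ornithine, was lower, at 4.51 ± 1.06 against 9.45 ± 1.79 FPKM (± SD, 3 libraries each; limma adjusted p = 0.0144), a call lost without NC replicate 2 (adjusted p = 0.053) or 3 (0.0513). OAT, which interconverts ornithine and glutamate semialdehyde, was higher at 40.3 ± 3.30 against 26.3 ± 3.19 FPKM (SE 0.12 for a log2 difference of 0.60, limma adjusted p = 0.0114). ASL, which splits argininosuccinate, rose to 22.1 ± 1.80 from 14.3 ± 2.18 FPKM (limma adjusted p = 0.0151). ASL lost its call without NC replicate 2 (adjusted p = 0.0598), NC replicate 3 (0.0559) or SPIN1 replicate 2 (0.0551).

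In the methionine cycle and salvage list, 1 gene was higher, 4 lower and 6 not past the threshold of 11 tested (9.09% higher and 36.4% lower, beside 17.3% and 10.3% of all genes). MAT2A, which makes the S-adenosylmethionine that AMD1 uses, was at 159, 182 and 178 FPKM in the NC libraries and at 85.4, 77.2 and 91.4 FPKM in the SPIN1 libraries. It was 2.04-fold lower in groups that were far apart (log2 difference -1.02, SE 0.10, limma adjusted p = 0.000997). MTRR, which reactivates methionine synthase, was lower, at 4.88 ± 0.421 against 8.04 ± 0.769 FPKM (± SD, 3 libraries each; limma adjusted p = 0.0088). CTH and CBS, the enzymes that turn homocysteine towards cysteine, were lower at 0.837 ± 0.280 against 2.09 ± 0.123 FPKM and at 2.39 ± 0.717 against 5.17 ± 0.859 FPKM (limma adjusted p = 0.00757 and 0.0154). CBS, named to complete the count, lost its call without NC replicate 2 (adjusted p = 0.0564) and without both libraries numbered 1 (0.0969). The higher gene was MRI1, the isomerase after MTAP in methionine salvage, at 9.97, 10.0 and 8.72 FPKM against 5.87, 5.16 and 5.39 FPKM (difference 0.71 in log2, SE 0.10, limma adjusted p = 0.00432).

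Among 8 transport genes tested, 1 was higher and 2 were lower. SLC7A1, the main carrier of arginine and ornithine, was lower at 11.4 ± 1.11 against 18.5 ± 1.06 FPKM (± SD, 3 libraries each; log2 difference -0.65, limma adjusted p = 0.00585). SLC3A2, a heavy chain of amino acid exchangers also reported in polyamine export, was lower at 66.3 ± 3.92 against 110 ± 10.1 FPKM (a log2 difference of -0.73 with a limma adjusted p = 0.00317). CAV1, caveolin, reported to act on polyamine uptake, was higher at 110, 172 and 171 FPKM against 51.0, 55.8 and 61.9 FPKM (difference 1.39 in log2, limma adjusted p = 0.00336). The polyamine pump gene ATP13A3 was at 2.05, 4.60 and 5.71 FPKM in the SPIN1 libraries against 1.93 to 2.15 FPKM, and SPIN1 replicate 1 lay with the NC libraries. It was not past the threshold (limma adjusted p = 0.133), and without that replicate it was (0.00412). It was chosen after its values were seen.

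Hypusination, which attaches part of spermidine to the translation factor eIF5A, had 1 gene higher and 1 lower of 4 tested. DHPS, the enzyme of the first step, was at 19.7, 23.3 and 24.6 FPKM in the NC libraries and at 15.5, 13.5 and 11.8 FPKM in the SPIN1 libraries. The groups did not overlap, and DHPS was lower (log2 difference -0.69, SE 0.13, limma adjusted p = 0.0111). EIF5A was higher, at 152 ± 4.19 against 121 ± 12.7 FPKM (± SD, 3 libraries each; log2 difference 0.34, limma adjusted p = 0.0409). That call held in 1 of the 6 fits without 1 library, the one without NC replicate 1 (adjusted p = 0.0338), and the others ran from 0.0575 to 0.113. It was also lost after median scaling (0.118), quantile normalization (0.0581) and rescaling without the mitochondrially encoded genes (0.0579). Reads of EIF5A can be shared with its near copy EIF5AL1, so its level is uncertain.

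**Figure D4:**
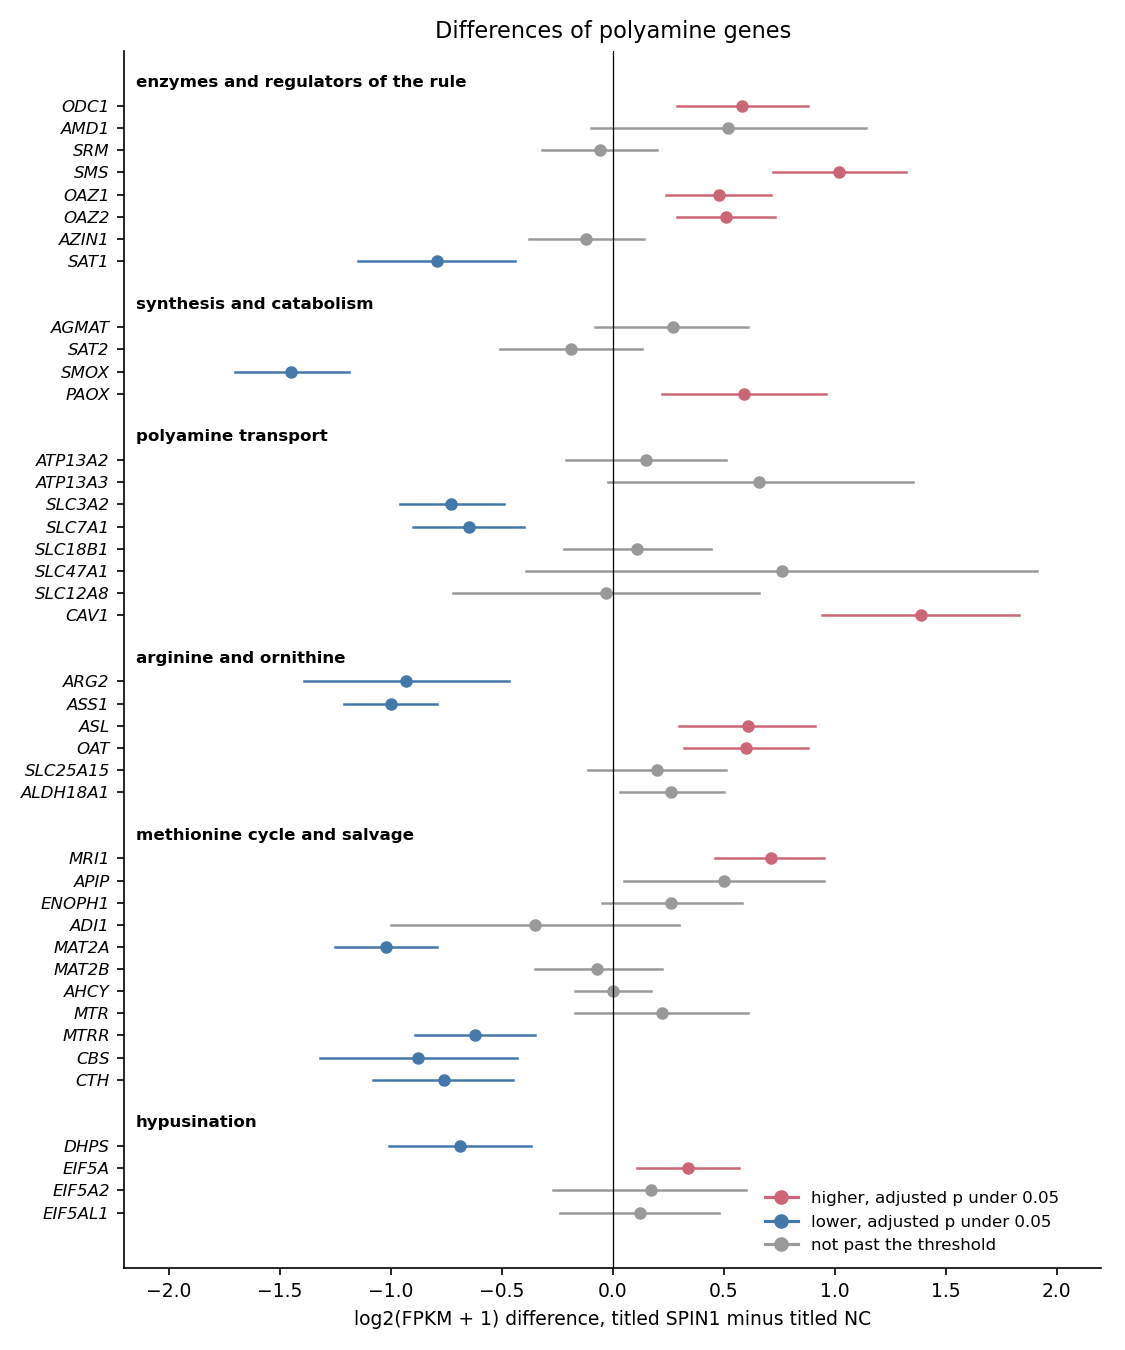
Log2(FPKM + 1) difference, SPIN1 minus NC, of the 8 polyamine genes and the 33 other polyamine genes tested, with bars for limma's 95% interval and colour for the call. SMOX (-1.45) lies farthest to the left and CAV1 (1.39) farthest to the right.

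At the MTAP locus, MLLT3 and FOCAD were the 2 of 9 listed neighbours analysed. FOCAD was higher, at 1.35 ± 0.115 against 0.857 ± 0.0671 FPKM (± SD, 3 libraries each; log2 difference 0.34, limma adjusted p = 0.0303), a call lost in each of the 6 fits without 1 library (adjusted p from 0.0511 to 0.0904). After quantile normalization the FOCAD call was lost as well (limma adjusted p = 0.0692). MLLT3 was not past the threshold (log2 difference 0.27). Methylthioadenosine, the substrate of MTAP, inhibits the arginine methyltransferase PRMT5, which was at 26.0 ± 4.79 against 29.5 ± 0.827 FPKM (difference -0.19 in log2, limma adjusted p = 0.344). Of 5 genes of the PRMT5 complex, COPRS was called higher (log2 difference 0.29, limma adjusted p = 0.0441), and this call too was lost in all 6 fits without 1 library (adjusted p at or above 0.0606) and after each rescaling.

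SMS and SAT1, which moved in opposite directions, lie on the same arm of chromosome X, 1788336 bases apart on hg19. Between them the table held 3 genes, with a median log2 difference of 0.14. PHEX, an endopeptidase gene, was higher at 1.07 ± 0.0787 against 0.593 ± 0.0391 FPKM (± SD, 3 libraries each; log2 difference 0.38, limma adjusted p = 0.0149). That call was lost without NC replicate 2 (adjusted p = 0.0693) and without SPIN1 replicate 2 (0.0535). PRDX4 (log2 difference 0.14) and ACOT9 (0.03) were not past the threshold. Over the 346 chromosome X genes tested, 69 were higher and 42 lower (19.9% and 12.1%, beside 17.3% and 10.3% of all genes).

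Factors reported to act on SAT1 or ODC1, or beside SAT1 in ferroptosis, were read from 3 lists. From the list that holds the lipoxygenase genes, 3 genes are given here. CDKN1A, a cell cycle inhibitor, was lower, at 117, 51.0 and 51.3 FPKM in the SPIN1 libraries against 175, 146 and 137 FPKM (difference -1.16 in log2, limma adjusted p = 0.0415). MDM2, a ubiquitin ligase, was lower, at 9.04, 2.48 and 3.13 FPKM against 13.2, 13.8 and 16.3 FPKM (difference -1.55 in log2, limma adjusted p = 0.0290). For both, SPIN1 replicate 1 lay nearest to the NC libraries, and the call held in the fit without it alone (limma adjusted p = 0.00153 for CDKN1A and 0.00126 for MDM2). In the other 5 fits without 1 library the limma adjusted p ran from 0.0824 to 0.121 for CDKN1A and from 0.0671 to 0.0918 for MDM2. ALOX5, a lipoxygenase, was not past the threshold, at 3.49 ± 0.196 against 4.37 ± 0.551 FPKM (± SD, 3 libraries each; limma adjusted p = 0.151).

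Of 4 SAT1 regulators, NFE2L2 (NRF2) was not past the threshold (log2 difference -0.24), nor were KEAP1 (-0.20) and NCL (0.23). PMF1, a partner of NRF2 at the SAT1 gene, was higher at 8.22, 13.1 and 8.30 FPKM against 5.67, 6.21 and 5.68 FPKM (difference 0.64 in log2, limma adjusted p = 0.0410). Its call held in the fit without SPIN1 replicate 1 alone (0.0363), and the other 5 ran from 0.0510 to 0.107. It was also lost after median scaling (0.0708), quantile normalization (0.0701) and rescaling without the mitochondrially encoded genes (0.0569). In the MYC network 1 gene was higher and 1 lower of 10 tested, each 10.0%. MXD3, which competes with MYC for its partner MAX, was 3.75-fold higher at 5.89 ± 0.614 against 1.57 ± 0.146 FPKM (difference 1.42 in log2, SE 0.11, limma adjusted p = 0.000675). MGA, a repressor of the same network, was lower (-0.41, limma adjusted p = 0.0301), a call that held in 1 of the 6 fits, without SPIN1 replicate 3 (0.0330), with the other 5 from 0.0514 to 0.102. MYC, which binds the E-box, was at 54.9, 65.7 and 4.45 FPKM in NC replicates 1 to 3 and at 63.4, 75.2 and 97.0 FPKM in the SPIN1 libraries. NC replicate 3 stood apart from the other 5 libraries, and the log2 difference of 1.52 (limma adjusted p = 0.271) was 0.36 without it. MYC was named after its values were seen.

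By the distance between log2(FPKM + 1) profiles centred on their means, over 6 libraries and among the 8583 other genes that averaged 2 FPKM or more, the genes most like SAT1 were TPD52L1, PDE4B and KLRC2. Their root mean square distances were 0.062, 0.063 and 0.081, beside a median of 0.503 over all genes. PDE4B, a cyclic AMP phosphodiesterase, was at 14.5, 15.8 and 14.8 FPKM in the NC libraries and at 9.15, 9.02 and 6.92 FPKM in the SPIN1 libraries, and it shared the low value of SAT1 in SPIN1 replicate 3. Most like ODC1 were LSM4, BZW2 and KIF26A (0.053, 0.067 and 0.069, beside a median of 0.371). LSM4, an RNA-binding protein of the splicing machinery, was at 57.8, 53.5 and 54.1 FPKM against 97.9, 67.6 and 89.4 FPKM, lowest in replicate 2 of the SPIN1 libraries, as ODC1 was. Such shared values follow from the choice of the nearest profiles.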

How the data were processed

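The authors deposited FPKM per gene, as the file headers name them. Per the submitters' processing notes the tools were FastQC, cutadapt, HISAT2 and StringTie and the build was hg19, without versions. Per the labels' protocols, poly(A) RNA was made into strand-specific libraries and sequenced as paired ends. Read counts are not in this table, the depth of a value is unknown, and its precision rests on the 3 libraries per group. In FPKM, a change in a few abundant genes shifts all others.

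Differences are SPIN1 minus NC on log2(FPKM + 1). Tested genes (11061 of 11314) averaged 0.5 FPKM or more over the 6 libraries. The test was limma 3.58.1 in R 4.3.3, robust (statmod 1.5.0) and with a trend on level, Benjamini-Hochberg adjusted over all of them at a threshold of 0.05. The fit was tested on simulated data. A fold is a ratio of mean FPKM, and for the ratios within a library it is from the mean log2 ratio. Ratios were tested in scipy 1.17.1, and MTAP to AMD1 could not be formed. Figures were drawn with matplotlib 3.10.9.

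The genes and lists were chosen with earlier results of these data known. The rule for named genes took all polyamine genes analysed, up to 4 called genes with the smallest adjusted p per list, 3 genes most like SAT1 and ODC1 each, and SPIN1. Other genes of the lists were not analysed here, and 1 gene of a list is not reported here. The fits were repeated with pseudocounts of 0.1 and 0.01, without the filter, with a filter at 2 FPKM, and with median scaling, quantile normalization, rescaling without the mitochondrially encoded genes, plain moderation without trend, library weights, a replicate block, a log2 difference of at least 1, and leaving out each library. A fit without NC replicate 1 and SPIN1 replicate 1 together was chosen after seeing the data.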

Additional observations from a re-analysis of the deposited data

How the results depend on the processing

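SAT1, SMS and OAZ2 kept their direction and their call under all 17 alternative fits, with log2 differences of -0.94 to -0.63, 0.91 to 1.10 and 0.43 to 0.74. With 1 library left out, the log2 difference of ODC1 ran from 0.47 to 0.70, of OAZ1 from 0.43 to 0.55, of AMD1 from 0.38 to 0.76, of SRM from -0.12 to 0.02 and of AZIN1 from -0.20 to -0.05. Weights per library moved AMD1 past the threshold (0.85) and turned the sign of SRM (0.04). Leaving out both libraries numbered 1 also turned the sign of SRM (0.09), while AMD1 (0.62) stayed short of the threshold. The cause was not tested. With 1 library left out, the count of polyamine genes higher ran from 2 (without NC replicate 2, where 16.0% of all genes were called and not 27.6%) to 4 and of other polyamine genes higher from 3 (without NC replicate 2, NC replicate 3 or SPIN1 replicate 2) to 6. Also requiring a log2 difference of 1 left 1 polyamine gene higher and 0 lower by limma, and 1 other polyamine gene higher and 3 lower. The log2 ratio of ODC1 to OAZ1 ran from -0.05 (without SPIN1 replicate 1) to 0.26 with 1 library left out, and that of AMD1 to ODC1 from -0.29 to 0.28, turning sign without NC replicate 1 (0.21) and SPIN1 replicate 3 (0.28).

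Libraries with the same replicate number share only that number in the labels. The deviations from their group means correlated at 0.216, 0.055 and 0.148 across genes for numbers 1 to 3. For pairs of libraries with different numbers these correlations ran from -0.211 to 0.076. With the replicate number as a block, 4 polyamine genes were higher and 1 lower, and of the other polyamine genes 5 were higher and 10 lower. SAT1 then had a limma adjusted p = 0.0274 and SMS of 0.00648. Of the genes of the lists named here, EIF5A (0.0649), FOCAD (0.0550) and COPRS (0.0621) lost their call. The log2 ratio of SAT1 to SMS stayed at -1.84, with p = 0.25 in an exact sign-flip test over the 3 pairs, the smallest it allows. The depth is unknown, so it cannot be said how far counting error limits low genes such as OAZ2.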
